A study of Mus musculus with 6 samples.

Results

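The 35 genes described here encode the protein-folding and quality-control machinery of the endoplasmic reticulum (ER), and were taken by symbol from a deposited table of 54532 genes. All 35 symbols were found, each in 1 row. They fall into 13 chaperones and their cofactors, 8 disulfide isomerases and related oxidoreductases, 8 genes of ER-associated degradation (ERAD), 3 translocon subunits and a sensor group of 3, which holds the sensor genes Ern1 and Atf6 and the transcription factor gene Xbp1. Of the 35, 34 reached 1 FPKM in at least 3 of the 6 libraries and were tested, beside 10362 tested genes in all. The exception was Derl3.

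RNA was sequenced from mouse peritoneal macrophages in 3 SAHH-KO libraries and 3 control libraries, to ask how the stimulated transcriptome differs when S-adenosylhomocysteine hydrolase is low. This enzyme, the product of Ahcy, removes S-adenosylhomocysteine, an inhibitor of methyltransferases. The SAHH-KO cells are named a knockout in the titles and a knockdown in the genotype field, and the control cells are named shControl in the titles and WT in the genotype field. Both groups were elicited with thioglycollate, collected after 4 days, purified by 6 h of adherence and given interferon-γ at 2 ng/mL with lipopolysaccharide at 10 ng/mL for 8 h. Strain, age and sex of the mice, the hairpins used and whether replicates came from separate mice or cultures are not given in the labels. The p-values below therefore measure the spread between these libraries, which may be technical. All values describe stimulated cells, since no unstimulated library is among those analysed here.

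Secreted and membrane proteins enter the ER through the Sec61 translocon and are folded there by the chaperone BiP and its cofactors, by the lectin chaperones calreticulin and calnexin, and by disulfide isomerases. Proteins that fail to fold are carried back to the cytosol and destroyed by ERAD, with the ubiquitin ligase HRD1 at its core. The sensors IRE1 and ATF6 respond to unfolded protein: IRE1 splices the mRNA of the transcription factor XBP1, ATF6 is cut to release a transcription factor, and both raise transcription of chaperone and ERAD genes. Another sensor, PERK, acts through the translation of ATF4. Macrophages use this machinery to make cytokines and surface receptors in bulk when they are activated.

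The libraries held 15540442 to 17748745 reads assigned to genes. Ahcy stood at 5.51, 5.50 and 6.23 FPKM in SAHH-KO libraries, against 25.8, 22.6 and 24.4 FPKM in control libraries, and 68.7% of its 50-base words are shared with other genes, mostly Gm4737, so that reads may be split between them. Macrophage markers summed to 9320 to 10586 FPKM in SAHH-KO and 8344 to 8645 FPKM in control. Lyz2, which was not called, made up most of these sums. Of 8 markers 7 were tested, and 4 were called higher and 0 lower, beside 26.4% higher among all tested genes. Csf1r was not called but lay lower without overlap, at 91.0 ± 6.62 FPKM in SAHH-KO and 107 ± 8.07 FPKM in control (SD, n = 3 each). Mertk was near 0 in both groups. Plasma cells have an ER-rich cytoplasm, and of 6 plasma cell markers only Sdc1 was tested, with 5.19 ± 0.411 FPKM in SAHH-KO and 9.39 ± 0.883 FPKM in control (SD, n = 3 each). Sdc1 was called lower (limma adjusted p = 0.000338). Jchain, Mzb1, Ighm, Igkc and Tnfrsf17 had means of at most 0.312 FPKM in both groups. None of the 31 markers of B cells, T cells, neutrophils, mast cells, dendritic cells, fibroblasts or mesothelium, endothelium and eosinophils was tested, the highest mean among them being 0.521 FPKM. In bulk RNA, fewer cells of a kind and less RNA per cell cannot be told apart.

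The ER genes did not move as a block. Of the 34 tested, 14 were lower and 8 were higher in SAHH-KO, by limma on log2(FPKM + 1) with Benjamini-Hochberg adjusted p under 0.05 over all 10362 genes. The 14 lower genes were 9 of 13 chaperones and cofactors and 5 of 8 disulfide isomerases. The higher genes were the 3 of the sensor group (Ern1, Atf6 and Xbp1), 3 of the 7 tested ERAD genes and 2 isomerase-class genes. No translocon gene was called. Among all tested genes 26.8% were called lower and 26.4% higher, so the share of the ER genes called higher, 23.5%, lay near the background, while the share called lower was 41.2%. In all 64.7% of the ER genes were called, beside 53.3% of all tested genes. For 28 of the 34 genes every library of one group lay on the same side of every library of the other, which held for 62.3% of all tested genes. The median log2 fold change was -0.19 over the ER genes and -0.01 over all tested genes.

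Small changes depend on how libraries are scaled. The deposited values rest on size factors, and rescaling them to TPM, which fixes the sum of length-adjusted levels in each library, or by the reads assigned to genes, moves the median of all tested genes to -0.16 or -0.14. Under either scaling 19 ER genes were lower and 6 higher, beside 37.6% lower and 19.4% higher among all genes with TPM (56.9% called) and 37.7% lower and 19.6% higher with assigned reads (57.3% called). Among genes with a mean of at least 5 FPKM, all 34 ER genes remained and 14 were lower and 8 higher, beside 28.4% lower and 28.5% higher of 6515 genes (56.9% called). With limma voom on the reads recovered from the table, the counts were 16 lower and 8 higher, beside 55.5% called among all genes. Where a call or a direction of an ER gene turns with TPM, it is said with the gene. For the lists of related genes further below only the counts with TPM are given, and a gene named there may lose its call.

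**Figure D1:**
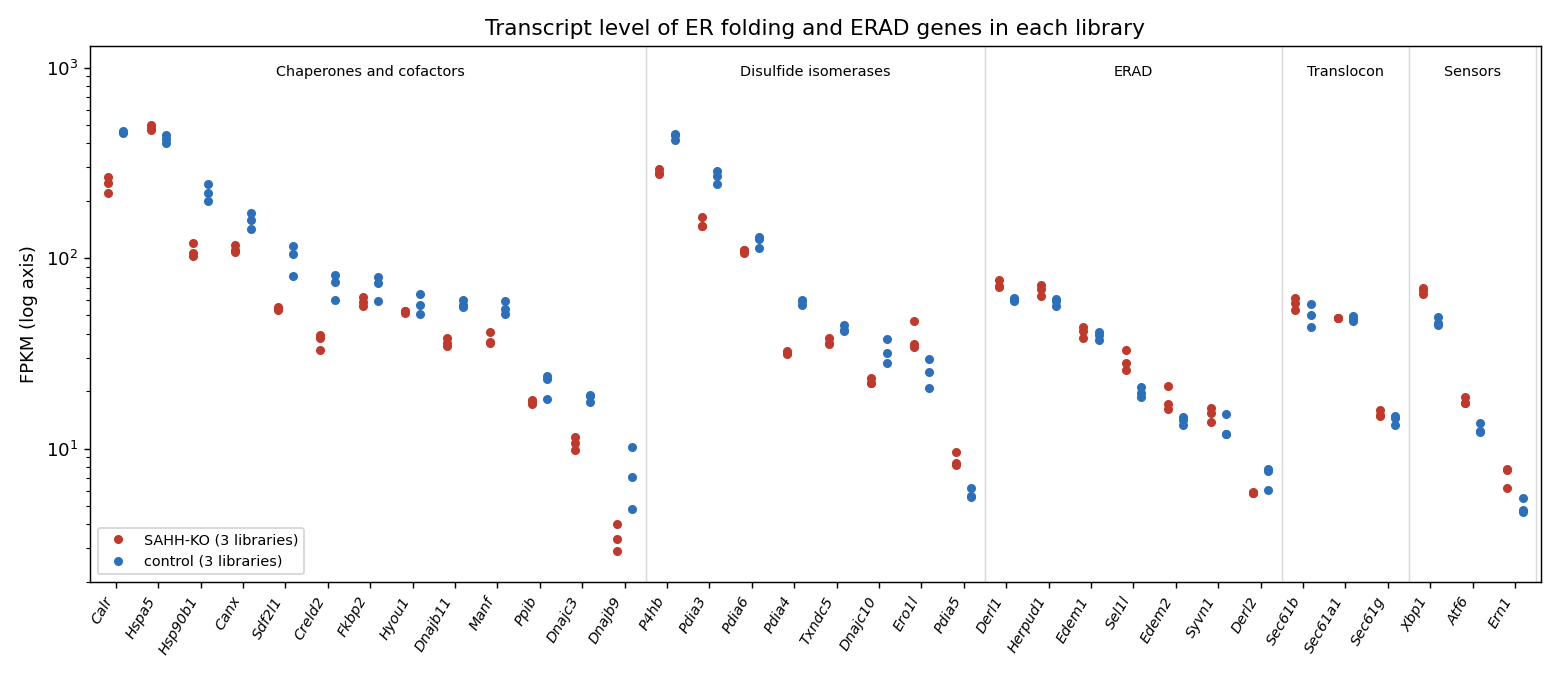
Level of 34 ER folding and ERAD genes (Derl3, near 0, is left out) in FPKM on a log axis, by role and by falling control mean. Each point is 1 library, with the 3 SAHH-KO libraries left of the 3 control libraries. Calr leads in control at 454 to 465 FPKM, while Hspa5 leads in SAHH-KO at 472 to 502 FPKM.

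Among the chaperones, Hspa5 was not called, while 9 of the other 12 genes were lower. Hspa5, which encodes BiP, the Hsp70-type chaperone of the ER lumen, was at 479, 502 and 472 FPKM in SAHH-KO libraries and at 400.5, 424 and 445 FPKM in control libraries. The groups did not overlap, but the difference of 1.14-fold missed the threshold (log2 fold change 0.20, 95% interval 0.03 to 0.36, limma adjusted p = 0.0511). With a pseudocount of 0.1 it passed by a little (adjusted p = 0.0488), and with TPM the change was 0.03. Hspa5 (ENSMUSG00000026864) lies on chromosome 2, bases 34771970 to 34777547 of the plus strand of GRCm38.

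Hsp90b1 encodes GRP94, the Hsp90-type chaperone of the ER and a folding factor of Toll-like receptors and integrins. It stood at 102, 120.5 and 107 FPKM in SAHH-KO libraries, against 200.1, 245 and 219.9 FPKM in control libraries. The groups stood far apart, the SAHH-KO mean being 0.495 of the control mean, with a log2 fold change of -1.01 (95% interval -1.24 to -0.78, adjusted p = 8.17e-05). It is on chromosome 10, bases 86690209 to 86705509, minus strand, and 15.7% of its exon bases are shared with 1810014B01Rik on the other strand, a gene with at most 0.621 FPKM in any library.

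The lectin chaperones bind newly made glycoproteins, calreticulin (Calr) in the lumen and calnexin (Canx) in the membrane. Calr was at 219, 267 and 248 FPKM in SAHH-KO libraries and at 454, 465 and 462 FPKM in control libraries (log2 fold change -0.91, SE 0.0870, adjusted p = 6.32e-05). Canx was at 108, 117 and 111 FPKM in SAHH-KO libraries and at 142, 172 and 158 FPKM in control libraries (-0.48, SE 0.0883, adjusted p = 0.00213). Both fell without overlap. Calr was 2.18 ± 0.136 times Canx in SAHH-KO and 2.94 ± 0.246 times Canx in control (SD, n = 3 each), without overlap (exact permutation p = 0.10, the smallest that 3 against 3 libraries allow).

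J-proteins deliver unfolded clients to BiP, and all 3 in the class fell. Dnajb11 (ERdj3) had 34.6, 37.9 and 36.0 FPKM in SAHH-KO libraries, against 55.4, 56.6 and 60.1 FPKM in control libraries (log2 fold change -0.65, adjusted p = 0.000184). Dnajc3 (p58IPK), a cofactor that also inhibits eIF2α kinases, had 9.81, 11.5 and 10.7 FPKM in SAHH-KO libraries, against 17.5, 18.9 and 19.1 FPKM in control libraries (-0.75, adjusted p = 0.000174). Neither gene's groups overlapped, and both spreads were narrow. Dnajb9 (ERdj4), which restrains IRE1 by bringing BiP to it, varied more: it had 2.90, 4.00 and 3.34 FPKM in SAHH-KO libraries and 4.80, 10.1 and 7.07 FPKM in control libraries (-0.87, 95% interval -1.37 to -0.38, adjusted p = 0.00921). The spread among the control libraries exceeded the difference between the group means, and without the filter on low genes Dnajb9 missed the threshold (adjusted p = 0.0537). It rests on 123 to 423 reads per library.

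Sdf2l1, a partner of ERdj3, fell to 54.3 ± 1.06 FPKM in SAHH-KO, against 101 ± 18.2 FPKM in control, with libraries between 53.7 and 55.6 FPKM in SAHH-KO and between 80.5 and 116 FPKM in control. Its log2 fold change was -0.86 (adjusted p = 0.000685). Creld2, an ER protein induced by ER stress, was at 32.8, 39.5 and 38.2 FPKM in SAHH-KO libraries and at 75.3, 59.99 and 81.1 FPKM in control libraries (-0.94, adjusted p = 0.000373). Manf, which stabilises BiP bound to its clients and is also secreted, averaged 37.6 ± 2.94 FPKM in SAHH-KO and 55.0 ± 4.50 FPKM in control (-0.54, adjusted p = 0.00152).

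The other members of the class were not called. Hyou1 encodes GRP170, which exchanges nucleotide on BiP, and it averaged 52.3 ± 0.542 FPKM in SAHH-KO and 57.7 ± 6.94 FPKM in control, with overlapping values (log2 fold change -0.13, 95% interval -0.35 to 0.09, adjusted p = 0.281). The prolyl isomerase genes Ppib (cyclophilin B) and Fkbp2 averaged 17.6 ± 0.452 and 58.9 ± 3.30 FPKM in SAHH-KO and 21.7 ± 3.10 and 71.0 ± 10.5 FPKM in control (adjusted p = 0.0582 and 0.0879). With TPM these 3 genes passed the threshold as lower, at adjusted p = 0.0381, 0.00838 and 0.0181. Ppib was also called lower with voom and without control replicate 1 (adjusted p = 0.0421 and 0.00257), and Fkbp2 without control replicate 2 (0.00659). Ppib shares 24.96% of its exon bases with Snx22 on the other strand, which had at most 0.205 FPKM. Over the 13 genes the median log2 fold change was -0.65, and 12 of 13 were below 0, beside 5266 of all 10362 tested genes. With TPM and with assigned-read scaling 12 of 13 were again below 0, beside 6469 and 6457 of all tested genes. Both scalings lower the median of all tested genes, so this was no further check.

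Hspa5 was compared with its partners within each library, where the scaling of the library cancels. BiP transcript was 4.69, 4.17 and 4.43 times that of Hsp90b1 in SAHH-KO libraries, against 2.00, 1.73 and 2.02 times in control libraries. It was 13.9, 13.3 and 13.1 times that of Dnajb11 in SAHH-KO libraries, against 7.22, 7.50 and 7.40 times in control libraries. Against Calr the ratio was 1.99 ± 0.174 in SAHH-KO and 0.919 ± 0.0412 in control, and against P4hb 1.71 ± 0.0105 in SAHH-KO and 0.974 ± 0.0309 in control (SD, n = 3 each). Against Dnajc3 it was 45.7 ± 2.76 in SAHH-KO and 22.9 ± 0.448 in control. All of these are ratios to genes called lower. Hyou1, which was not called, differed less: its transcript was 0.109, 0.103 and 0.112 times that of Hspa5 in SAHH-KO libraries, against 0.162, 0.121 and 0.128 times in control libraries, without overlap, and the SAHH-KO mean ratio was 0.790 of the control one. Of 12 ratios between ER genes, chosen with their values known, 9 did not overlap between the groups and gave an exact two-sided permutation p of 0.10, the smallest that 3 against 3 libraries allow (0.133 after Benjamini-Hochberg adjustment over the 12). For Hspa5 over the genes called lower, this separation was fixed by the single genes. Hspa5 stood higher in every SAHH-KO library than in any control library, and each of those genes stood lower. The same holds for Ero1l over P4hb and Derl1 over Derl2, so for these ratios the p adds no support. A changed ratio shows that 2 genes changed unequally, not which of them changed.

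**Figure D2:**
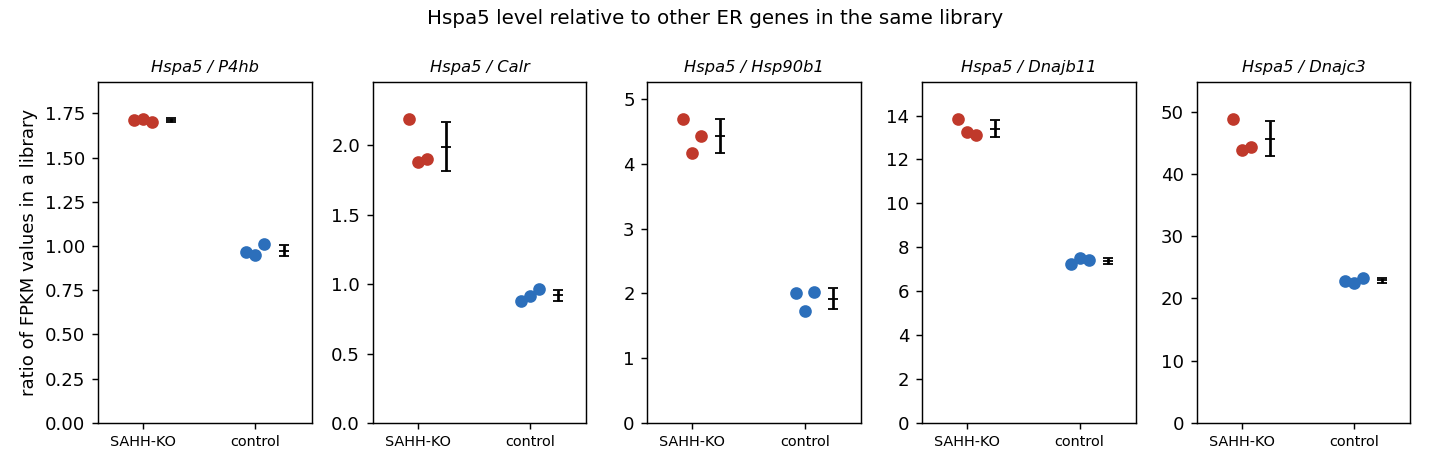
Ratio of the Hspa5 level to that of 5 other ER genes, all of them called lower, in the same library (linear axes from 0). Points are libraries, SAHH-KO left and control right, and the bar beside them is the mean with its SD (n = 3). In each panel all SAHH-KO ratios lie above all control ratios, as for Hspa5 over Hsp90b1 with 4.17 to 4.69 in SAHH-KO and 1.73 to 2.02 in control.

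Promoter letters are shown because many of these genes are classical targets of ATF6 and XBP1, which with the factor NF-Y read the ER stress response element (ERSE). RefSeq promoter windows of GRCm38.p6, 250 bases before to 50 bases after a start, matched 30 of the 35 genes. Manf, Hyou1, Derl1, Sec61a1 and Atf6 had no match. The ERSE was searched on both strands as CCAAT and CCACG with 9 bases of any kind between them, the related ERSE-II as ATTGG and CCACG with 1 base of any kind between them, and the core of the XBP1 element as TGACGTG. The ERSE letters stood in the windows of 9 ER genes and in 0.119% of all 32851 windows, the ERSE-II letters in 2 ER genes and 0.0365% of windows, and TGACGTG in 2 ER genes and 2.01% of windows. In the sites below the fixed letters of the element are in capitals, each is written 5′ to 3′ on the strand that reads it, and the sites shown do not overlap each other. The ERSE-II of Dnajb11, which runs past the start, the ERSE of the untested Derl3 and the TGACGTG sites are not printed.
Hspa5, ERSE, chr2:34772020-34772048, plus strand: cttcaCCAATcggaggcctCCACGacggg
Hsp90b1, ERSE, chr10:86705633-86705661, minus strand: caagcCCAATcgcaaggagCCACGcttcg
Hsp90b1, ERSE, chr10:86705528-86705556, plus strand: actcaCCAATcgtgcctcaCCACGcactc
Calr, ERSE, chr8:84847070-84847098, plus strand: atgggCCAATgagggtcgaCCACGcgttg
Canx, ERSE, chr11:50325795-50325823, minus strand: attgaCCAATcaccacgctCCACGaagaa
Dnajc3, ERSE, chr14:118937822-118937850, plus strand: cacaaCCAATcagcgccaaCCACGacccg
Creld2, ERSE, chr15:88819515-88819543, minus strand: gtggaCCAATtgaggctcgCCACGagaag
Pdia6, ERSE, chr12:17266486-17266514, plus strand: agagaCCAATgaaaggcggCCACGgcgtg
Syvn1, ERSE, chr19:6046527-6046555, plus strand: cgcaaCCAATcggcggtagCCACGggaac
Herpud1, ERSE-II, chr8:94386372-94386392, plus strand: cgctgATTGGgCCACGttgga
Genes with the same letters had different changes. Of the 9 with an ERSE, Hsp90b1, Calr, Canx, Dnajc3 and Creld2 were lower in SAHH-KO, Hspa5, Pdia6 and Syvn1 were not called, and Derl3 was not tested. Hspa5 also held TGACGTG, 151 bases before its RefSeq start. That start lies inside the gene as deposited, so the ERSE of Hspa5 printed above falls within the deposited gene model. Among the 21 matched genes with no ERSE letters in the window, 8 were lower, 6 higher and 7 not called. Whether the genes with and without the letters differ was not tested. Letters in a window are a description, and binding was not measured.

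The disulfide isomerases, which form and reshuffle disulfide bonds, were lower for 5 of 8 genes and higher for 2. P4hb, the classical protein disulfide isomerase, was the most abundant, with 279, 292 and 278 FPKM in SAHH-KO libraries and 414, 447 and 441 FPKM in control libraries (log2 fold change -0.61, SE 0.0701, adjusted p = 0.000171). Pdia3 (ERp57), which works with calreticulin and calnexin on glycoproteins and in the loading of MHC class I, had 147, 165 and 147 FPKM in SAHH-KO libraries and 244, 285 and 268 FPKM in control libraries (-0.79, adjusted p = 0.000147). Neither gene's groups overlapped. The ratio of Pdia3 to Calr, its partner, was 0.627 ± 0.0413 in SAHH-KO and 0.577 ± 0.0385 in control, with overlapping values.

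Pdia4 (ERp72) had 31.3, 32.6 and 31.7 FPKM in SAHH-KO libraries, against 56.8, 60.3 and 59.4 FPKM in control libraries. The libraries of each group lay close together, and the change was -0.86 on the log2 scale (95% interval -1.03 to -0.70, adjusted p = 2.65e-05). Dnajc10 (ERdj5), a reductase that opens disulfide bonds of proteins bound for degradation, averaged 22.5 ± 0.714 FPKM in SAHH-KO and 32.5 ± 4.88 FPKM in control (-0.50, adjusted p = 0.00503). Txndc5 (ERp46) was at 36.4 ± 1.58 FPKM in SAHH-KO and 42.6 ± 1.63 FPKM in control (-0.22, adjusted p = 0.0352), and it missed the threshold without SAHH-KO replicate 2, SAHH-KO replicate 3 or control replicate 3 (adjusted p = 0.114, 0.141 and 0.137). Pdia6 (P5) was not called at 109 ± 2.49 FPKM in SAHH-KO and 123 ± 8.29 FPKM in control (adjusted p = 0.106), and was called lower with TPM (-0.33, adjusted p = 0.00841) and without control replicate 2 (adjusted p = 0.0263).

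Ero1l, the oxidase that recharges PDI with disulfides, moved the other way from the isomerase it serves. It had 46.6, 34.1 and 35.6 FPKM in SAHH-KO libraries and 20.9, 29.5 and 25.1 FPKM in control libraries (log2 fold change 0.60, SE 0.152, adjusted p = 0.0102). SAHH-KO replicate 1 was the highest of the 6, and the groups did not overlap. The ratio of Ero1l to P4hb was 0.137 ± 0.0262 in SAHH-KO and 0.0578 ± 0.00786 in control (SD, n = 3 each). Pdia5, a low-abundance isomerase, rose to 9.61, 8.42 and 8.18 FPKM in SAHH-KO libraries, against 5.60, 5.59 and 6.22 FPKM in control libraries (0.52, adjusted p = 0.00176). Both genes were called higher with either other scaling.

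**Figure D3:**
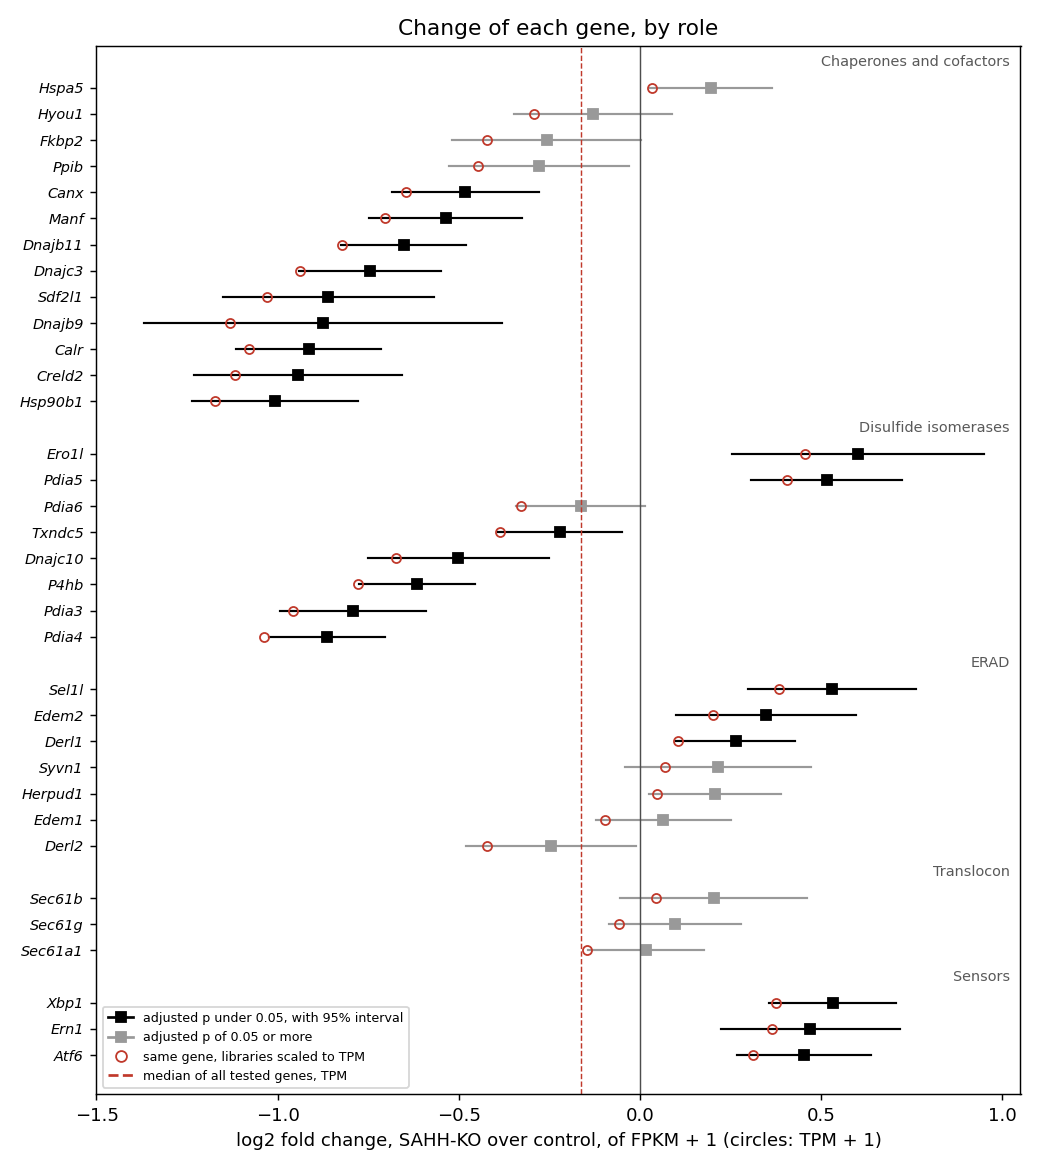
Log2 fold change of 34 ER genes, SAHH-KO over control, by role. Squares with 95% intervals are from limma on log2(FPKM + 1), black where the adjusted p was under 0.05, and open circles give the same gene with libraries scaled to TPM, whose median over all tested genes (-0.16) is the dashed line. Chaperones and isomerases reach down to -1.01, while Ern1, Atf6 and Xbp1, grouped as sensors, lie between 0.45 and 0.53.

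Of the 7 tested ERAD genes, Sel1l, Edem2 and Derl1 were called higher and none was called lower, although Derl2 was lower under several other settings. Sel1l, the adaptor that holds the HRD1 ligase together with its substrates, had 32.9, 26.0 and 28.1 FPKM in SAHH-KO libraries and 19.6, 20.9 and 18.6 FPKM in control libraries (log2 fold change 0.53, SE 0.102, adjusted p = 0.00268). All SAHH-KO values were above all control values, and Sel1l was the 1 ERAD gene that stayed called higher with TPM and with assigned-read scaling. Edem2, a mannosidase that starts the trimming of glycans on misfolded proteins, was at 21.3, 16.2 and 17.1 FPKM in SAHH-KO libraries and at 14.6, 13.3 and 14.1 FPKM in control libraries (0.35, adjusted p = 0.0260). Derl1, a derlin that forms part of the channel for export, was at 76.6, 71.3 and 70.8 FPKM in SAHH-KO libraries and at 59.4, 62.0 and 60.1 FPKM in control libraries (0.26, adjusted p = 0.0142). Both lost the call with TPM, at adjusted p = 0.146 for Edem2 and 0.235 for Derl1. Without SAHH-KO replicate 1 both missed the threshold (adjusted p = 0.0729 and 0.0548), as they did without control replicate 3 (0.0690 and 0.0561), and Edem2 also missed it without control replicate 2 (0.0652) and without the filter on low genes (0.0690).

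Syvn1, the gene of HRD1 itself, overlapped between the groups at 15.2 ± 1.24 FPKM in SAHH-KO and 13.0 ± 1.87 FPKM in control (adjusted p = 0.136). Without control replicate 1, its highest control library, it was called higher (log2 fold change 0.32, adjusted p = 0.0164). Herpud1 (Herp), a scaffold of the HRD1 complex and a sensitive target of the unfolded protein response, was at 63.5, 72.3 and 68.9 FPKM in SAHH-KO libraries and at 56.3, 61.1 and 59.2 FPKM in control libraries. These values did not overlap, and the test fell just short (0.21, 95% interval 0.03 to 0.39, adjusted p = 0.0554). It passed without SAHH-KO replicate 1 or control replicate 2 (adjusted p = 0.0453 and 0.0456).

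Edem1, another mannosidase-like ERAD factor, was at 41.0 ± 2.75 FPKM in SAHH-KO and 39.2 ± 1.80 FPKM in control (log2 fold change 0.06, 95% interval -0.12 to 0.25, adjusted p = 0.533), a sign that turned with TPM and with assigned-read scaling. Derl2 differed in sign from Derl1. It was at 5.83, 5.92 and 5.82 FPKM in SAHH-KO libraries and at 6.07, 7.83 and 7.60 FPKM in control libraries, which was not called (-0.25, adjusted p = 0.0730) but was called lower with TPM, with assigned-read scaling, with voom and without control replicate 1 (adjusted p = 0.0101, 0.0127, 0.0475 and 0.00684). Derl1 transcript was 12.4 ± 0.596 times that of Derl2 in SAHH-KO and 8.53 ± 1.09 times in control. Derl3, a derlin of secretory cells, had 0, 5 and 0 reads in SAHH-KO libraries and 2, 2 and 3 reads in control libraries, and the 5 libraries other than SAHH-KO replicate 2 lay at or under the floor of 3 reads, so no fold is given.

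The Sec61 translocon, the pore through which proteins enter the ER, showed no called change. Sec61a1, the pore subunit, was at 48.6, 48.6 and 48.3 FPKM in SAHH-KO libraries and at 49.9, 47.6 and 46.5 FPKM in control libraries. Its log2 fold change of 0.02 had a 95% interval of -0.14 to 0.18 (adjusted p = 0.864), which leaves room for a change of that size either way. The small subunits Sec61b and Sec61g averaged 57.8 ± 4.43 and 15.3 ± 0.600 FPKM in SAHH-KO and 50.3 ± 7.02 and 14.2 ± 0.811 FPKM in control (adjusted p = 0.160 and 0.340). The signs of Sec61a1 and Sec61g turned with TPM. Sec61b and Sec61g share 17.4% and 14.8% of their 50-base words with other genes, and the copy of Sec61g, Gm10177, was itself counted at 20.9 to 25.9 FPKM in SAHH-KO and 17.2 to 23.5 FPKM in control, so the level of Sec61g is uncertain.

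Ern1, Atf6 and Xbp1 were all higher, while the gene of the sensor PERK, outside the 35 genes, was lower and is given with the related lists. Xbp1, whose mRNA is the substrate of IRE1, had 64.6, 69.7 and 68.3 FPKM in SAHH-KO libraries and 44.4, 45.8 and 49.2 FPKM in control libraries, a 1.45-fold difference (log2 fold change 0.53, SE 0.0761, adjusted p = 0.000578). Atf6 had 17.4, 17.3 and 18.6 FPKM in SAHH-KO libraries and 12.3, 13.6 and 12.2 FPKM in control libraries, 1.40-fold (0.45, SE 0.0806, adjusted p = 0.00187). Ern1, which encodes IRE1α, had 7.70, 6.24 and 7.82 FPKM in SAHH-KO libraries and 5.48, 4.62 and 4.74 FPKM in control libraries, 1.47-fold (0.47, SE 0.108, adjusted p = 0.00653). None of the 3 overlapped between the groups, and each was called higher in each of the 13 alternatives tried. The table gives 1 value per gene, so spliced and unspliced Xbp1 mRNA cannot be told apart. Xbp1 lies on chromosome 11 (bases 5520659 to 5525893, plus strand), Atf6 on chromosome 1 (bases 170704674 to 170867771, minus strand) and Ern1 on chromosome 11 (bases 106394650 to 106487852, minus strand).

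These changes altered which transcripts dominate the set. In SAHH-KO the order by mean level began with Hspa5, P4hb, Calr and Pdia3, at 484, 283, 245 and 153 FPKM, and the library ranges of these 4 did not overlap each other. In control it began with Calr, P4hb and Hspa5, at 460.2, 434 and 423 FPKM. The 3 control means lay close together, and only Calr stood clear of the ranges of the others, at 454 to 465 FPKM beside 414 to 447 FPKM for P4hb and 400.5 to 445 FPKM for Hspa5. Xbp1 stood in place 10 of 35 in SAHH-KO and in place 19 in control, and Pdia4 in place 22 in SAHH-KO and in place 13 in control. Together the 35 genes took 0.824%, 0.876% and 0.831% of all assigned reads in SAHH-KO libraries, against 1.10%, 1.17% and 1.18% in control libraries. The chaperones took 0.439 ± 0.0250% in SAHH-KO and 0.636 ± 0.0242% in control, and the isomerases 0.217 ± 0.00610% in SAHH-KO and 0.338 ± 0.0161% in control (SD, n = 3 each). ERAD genes took 0.104 ± 0.00354% in SAHH-KO and 0.0985 ± 0.00234% in control, and the sensor group 0.0420 ± 0.00148% in SAHH-KO and 0.0328 ± 0.000673% in control. The translocon took 0.0416 ± 0.000158% in SAHH-KO and 0.0448 ± 0.00128% in control, a difference in the other direction from its FPKM values, which are scaled by size factors. All these shares carry the assigned-read scaling, under which 37.7% of all tested genes were lower and 19.6% higher.

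**Figure D4:**
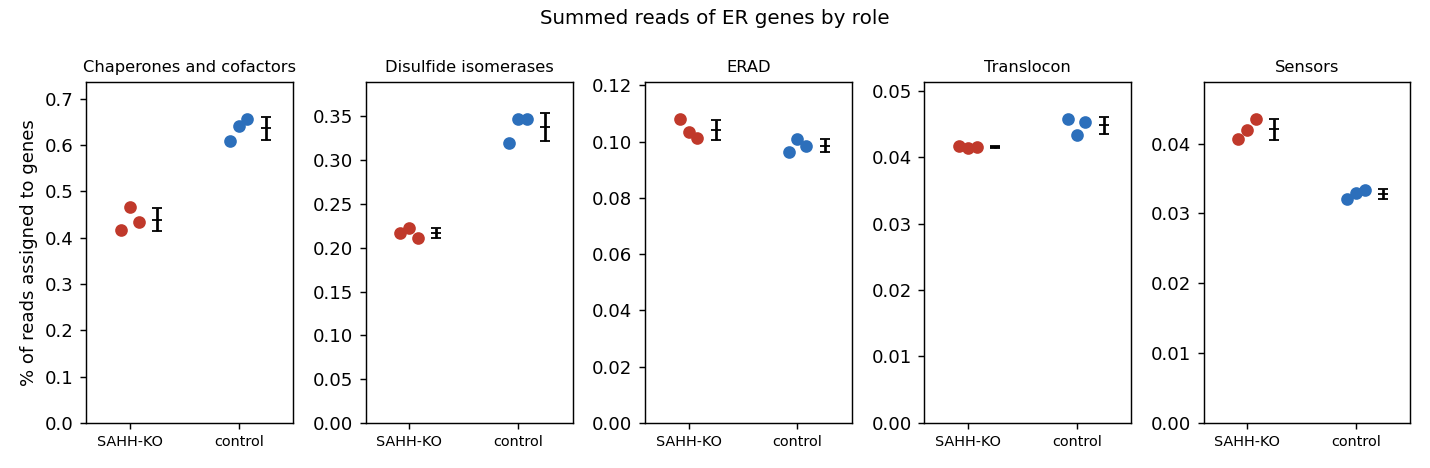
Share of all reads assigned to genes that fell on each role's genes, in percent (linear axes from 0). Points are libraries, SAHH-KO left and control right, with the mean and SD (n = 3) beside them. Chaperones and isomerases take less in every SAHH-KO library than in any control library, and the sensor group (Ern1, Atf6 and Xbp1) takes more. With assigned-read scaling the median log2 fold change of all tested genes was -0.14.

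Other genes of the same pathways were counted from 4 lists. Of 32 tested genes of further folding and glycoprotein quality control, 10 were lower and 3 higher (median log2 fold change -0.13), or 16 and 2 with TPM. For this and the next 3 lists the background is the share of all tested genes, 26.8% lower and 26.4% higher, or 37.6% and 19.4% with TPM. The lower ones included Erp29, an ER resident related to disulfide isomerases (9.14 ± 0.472 FPKM in SAHH-KO and 15.7 ± 0.972 FPKM in control, adjusted p = 0.000184), and Kdelr2, a receptor that returns escaped ER proteins (35.3 ± 1.74 FPKM in SAHH-KO and 53.6 ± 3.32 FPKM in control, adjusted p = 0.000466). Cnpy3, a GRP94 cofactor for Toll-like receptors, fell to 9.02 ± 0.266 FPKM in SAHH-KO, against 15.7 ± 2.25 FPKM in control (adjusted p = 0.000716). The higher ones were Ppic, the gene of cyclophilin C, at 2.20-fold, Sil1, a nucleotide exchange factor of BiP, at 1.58-fold, and Txndc16 at 1.48-fold (adjusted p = 5.21e-06, 0.00226 and 0.0403).

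Of 33 further ERAD genes 11 were lower and 6 higher (median -0.17), or 19 and 2 with TPM. Among all tested genes 26.8% were lower and 26.4% higher, or 37.6% and 19.4% with TPM. Herpud2, a relative of Herpud1, rose to 12.3 ± 1.72 FPKM in SAHH-KO, against 5.81 ± 0.284 FPKM in control (adjusted p = 0.000144). Os9, a lectin that hands misfolded glycoproteins to HRD1, rose to 59.0 ± 4.49 FPKM in SAHH-KO, against 40.3 ± 4.75 FPKM in control (adjusted p = 0.00260), and Faf2, which recruits the segregase p97, rose 1.29-fold (adjusted p = 0.00827). Ubxn8, Get4 and Ube2g2, the last of them an ERAD ubiquitin-conjugating enzyme, fell to 0.485, 0.702 and 0.675 of their control means (adjusted p = 0.000419, 0.00158 and 0.00230).

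Among 34 genes of signal recognition, translocation, signal peptidase and oligosaccharyltransferase, 11 were lower and 4 higher (median -0.10), or 18 and 2 with TPM. The shares of all tested genes were 26.8% lower and 26.4% higher, or 37.6% and 19.4% with TPM. The oligosaccharyltransferase genes Ost4, Stt3b and Dad1 fell to 0.475, 0.710 and 0.664 of their control means (adjusted p = 0.000143, 0.000753 and 0.000967). Tram2, Srpr, a subunit of the signal recognition particle receptor, and Ssr4, a translocon-associated protein, rose 2.44-fold, 1.31-fold and 1.22-fold (adjusted p = 0.000212, 0.00257 and 0.0146).

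The other sensors and regulators of the unfolded protein response had 11 of 20 tested genes higher and 2 lower (median 0.32), or 9 and 3 with TPM, beside 26.4% higher and 26.8% lower among all tested genes, or 19.4% and 37.6% with TPM. The smallest p-values were those of the targets of the ATF4 branch Chac1, Trib3 and Ddit3, with 57.3 to 59.1, 44.3 to 58.7 and 35.5 to 46.4 FPKM in SAHH-KO libraries and 16.1 to 16.6, 7.98 to 9.27 and 8.12 to 10.1 FPKM in control libraries (adjusted p = 6.30e-07, 1.44e-06 and 4.96e-06). The lower ones were Eif2ak3, which encodes the sensor PERK, and Nfyc, a subunit of NF-Y. Eif2ak3 had 1.53, 2.12 and 1.84 FPKM in SAHH-KO libraries and 3.16, 2.68 and 2.63 FPKM in control libraries (log2 fold change -0.44, adjusted p = 0.0111). Nfyc had 6.35, 8.75 and 7.80 FPKM in SAHH-KO libraries and 14.2, 14.1 and 13.0 FPKM in control libraries (-0.78, adjusted p = 0.000578). Thus of the genes of the 3 sensors Ern1 and Atf6 were higher and Eif2ak3 was lower.

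**Figure D5:**
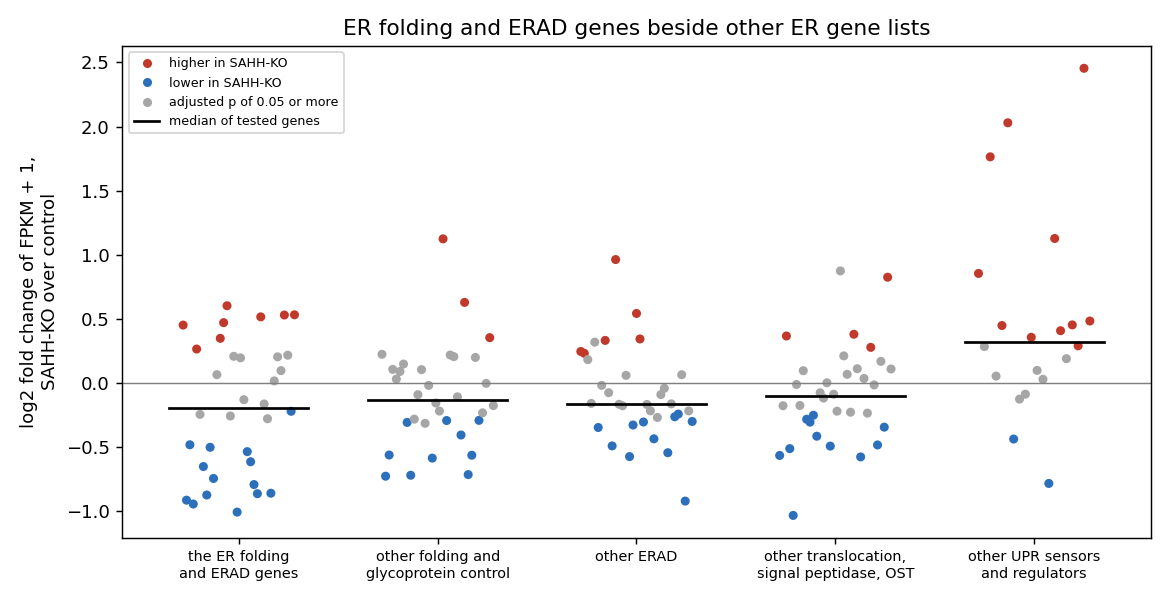
Log2 fold change of each tested gene, SAHH-KO over control, for the 34 ER folding and ERAD genes and 4 lists of related ER genes (OST, oligosaccharyltransferase; UPR, unfolded protein response). Red points were called higher, blue points lower and grey points neither at adjusted p under 0.05, and black bars are medians, from -0.19 for the ER folding and ERAD genes to 0.32 for the other UPR regulators.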

How the data were processed

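The authors deposited 1 table of FPKM values for 6 libraries, which per the labels' protocols were made from 1.3 µg of total RNA each with a SMARTer mRNA kit. The submitters' processing notes name featureCounts, STAR, Trim Galore and FastQC, and the builds GRCm38 and mm10; versions, strand use and the step to FPKM are not given in the sources used here, so reads of genes on opposite strands may mix. FPKM times gene length gave whole reads for 100% of values (within 0.01 of a read), which showed the assigned reads and the effective library sizes, equal to median-of-ratios size factors.

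Genes with at least 1 FPKM in 3 or more libraries were tested with limma 3.58.1 in R 4.3.3 (lmFit, eBayes with trend) on log2(FPKM + 1), group as the only term, two-sided. This scale understates changes of low genes; fold changes in words are ratios of mean FPKM. For a 1 kb gene, 3 reads were worth 0.168 to 0.197 FPKM, the floor, which covers counting error only. No libraries were identical; within groups the chi-square of reads per degree of freedom was 3.97 to 29.1, highest between control replicates 1 and 2.

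The members, the gene lists and the ratios were chosen with earlier results of these data known. Named by rule are Ahcy, all 35 genes and, per list, up to 3 genes with the smallest p in each direction among those called. Cell type markers and genes that share sequence or exon bases are named beside them. The regulators under other observations were chosen after their values were seen. Gene models were compared with GENCODE M21. The planned look at protein ends was not made, and protein sequences were not used here. The script for the fit was run on simulated data, which checks the code only and does not bear on the calls reported here.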

Additional observations from a re-analysis of the deposited data

How the results depend on the processing

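Each result was recomputed under 13 alternatives: a pseudocount of 0.1, no filter, a mean of at least 5 FPKM, TPM, assigned-read scaling, limma voom on the recovered reads, a replicate block, and each of 6 libraries left out. Ahcy stayed lower in all of them. The ER genes called lower numbered 13 to 19 and those called higher 6 to 9. Over the same alternatives 11.3% to 37.7% of all tested genes were called lower and 11.97% to 28.5% higher. The count of 19 lower came only with TPM and assigned-read scaling, where the lower share of all tested genes was also largest. The ranges of the ER genes are therefore no measure of stability by themselves. The same call was kept in every alternative by 12 of 14 lower genes (all but Dnajb9 and Txndc5) and 6 of 8 higher genes (all but Edem2 and Derl1). The matching share over all tested genes was not computed. TPM and assigned-read scaling move the median of all tested genes to -0.16 and -0.14. A lower call was thus easier to keep there than a higher call, and these counts are not equally strict checks. Voom called 16 lower and 8 higher.

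Signs turned for 3 genes that were not called: Edem1 (-0.10 with TPM, -0.092 with assigned reads), Sec61g (-0.059 and -0.054) and Sec61a1 (-0.15 and -0.14, and -0.0067 to 0.044 with libraries left out). The other lists moved more. With TPM and with assigned reads, the further folding genes had 16 lower in both, the further ERAD genes 2 higher and 19 lower in both, and the translocation genes 2 higher in both and 18 or 17 lower. Of all tested genes 37.6% were lower and 19.4% higher with TPM, and 37.7% and 19.6% with assigned reads. Without the filter, where more genes share the adjustment, the lower counts were 6 for folding and 7 for translocation. Of all tested genes 11.3% were lower there. With libraries left out the lower counts ranged over 6 to 12 for folding, 7 to 12 for ERAD and 6 to 15 for translocation. Of all tested genes 21.2% to 28.7% were lower in those settings. The list counts dropped to 6, 7 and 6 without control replicate 3 or SAHH-KO replicate 3. Without SAHH-KO replicate 1 they dropped to 7 for ERAD and 6 for translocation. The lower share of all tested genes was also smallest without these 3 libraries, at 21.2%, 21.3% and 21.5% in turn. The mean filter left 1 lower gene among the other UPR regulators, since it removes Eif2ak3. Other causes were not tested.

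The replicate numbers are not said to pair libraries: the deviations of equally numbered libraries correlated at 0.10, 0.10 and -0.01, so the main test has no block. The replicate block gave 14 lower and 8 higher ER genes, beside 26.6% lower and 26.3% higher among all tested genes. It ended the call of Txndc5 (adjusted p = 0.0580) and added Ppib (0.0436).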

Other observations

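The regulators of the unfolded protein response named here come from the last list above and were chosen after their values were seen. Those higher in SAHH-KO are already among its 11 of 20 tested genes called higher, beside 2 lower and the rest not called. Among all tested genes 26.4% were higher. Atf4, which encodes a transcription factor that PERK acts through, averaged 292 ± 17.96 FPKM in SAHH-KO and 161 ± 13.0 FPKM in control (SD, n = 3 each, limma adjusted p = 9.39e-05). The activity of PERK was not measured. Ppp1r15a, the stress-induced phosphatase subunit that reverses eIF2α phosphorylation, averaged 37.0 ± 1.55 FPKM in SAHH-KO and 16.4 ± 1.83 FPKM in control (adjusted p = 3.19e-05), and Ppp1r15b, its constitutive relative, 42.0 ± 1.59 FPKM in SAHH-KO and 31.4 ± 1.88 FPKM in control (adjusted p = 0.00275). Tmbim6, an ER membrane protein that restrains IRE1, was 1.37-fold higher (adjusted p = 0.000997). The proteases that cut ATF6 were not called: Mbtps1 averaged 8.63 ± 0.754 FPKM in SAHH-KO and 9.50 ± 0.607 FPKM in control, and Mbtps2 averaged 8.94 ± 0.352 FPKM in SAHH-KO and 9.62 ± 1.52 FPKM in control (adjusted p = 0.279 and 0.531).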
